A study of Homo sapiens with 4 samples.

Results

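The renal tubule lineage genes described here are PAX2, PAX8, HNF4A, LHX1, CDH6, CDH16, LRP2 and AQP1, 4 kidney transcription factors and 4 proteins of the tubule cell surface. They were taken by name from the table of counts, which held all 8 of them among 36359 genes. The cells were ACHN, a human line established from a renal cell carcinoma and grown in MEM with serum, in which PRR11 had been silenced by transfection of an siRNA (siPRR11, 2 libraries) or which had received a control siRNA (siNC, 2 libraries). Both groups carried the transfection itself, the line is a single tumor line, and the labels do not say whether the libraries of a group were separate cultures, so p-values measure only the spread between these libraries. The sources used here do not state which siPRR11 duplex each library received.

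In the developing kidney, PAX2 and PAX8 are paired-box factors that set up the nephric lineage, and PAX8 stays on in many renal tumors, where it serves as a lineage marker. LHX1 is a LIM-homeobox factor of the early nephron, and HNF4A is a nuclear receptor that drives the mature program of the proximal tubule. CDH16 is a cadherin of kidney tubule epithelium, CDH6 is a cadherin of the forming nephron and proximal tubule, LRP2 (megalin) is the apical receptor that takes up filtered proteins, and AQP1 is the water channel of the proximal tubule and descending limb.

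The libraries held between 59003839 and 92612749 counted reads. PRR11, the targeted gene, was at 41.3 and 40.4 CPM (counts scaled to library size after TMM normalization) in siNC cells and at 15.3 and 14.02 CPM in siPRR11 cells. Groups were compared by edgeR's quasi-likelihood test over 21630 genes with enough counts, with Benjamini-Hochberg adjustment over all of them. An adjusted p-value under 0.05 was reached by 3622 genes, 16.7% of those tested, with 7.61% higher and 9.14% lower in siPRR11 cells. Small counts were mostly even. Of 32147 values between 1 and 10 counts, 79.2% were even, as when both ends of a fragment are counted, so the intervals given for genes near 0 use 1 molecule per 2 counts and cover counting error only.

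The 8 genes fell into an expressed and a near-silent set. PAX8, PAX2, LHX1 and CDH16 lay between 1.63 and 49.8 RPKM (reads scaled to exonic length and library size, as deposited) in every library. AQP1, HNF4A, CDH6 and LRP2 lay below 0.1 RPKM in every library. On this per-length scale PAX8 was at 43.6 ± 8.82 RPKM in siNC cells (SD, n = 2), followed by PAX2 at 3.39 ± 0.455, LHX1 at 2.56 ± 0.706 and CDH16 at 1.97 ± 0.14. PAX8 stood at the 96.1th to 97.4th percentile of all genes in the table, and the other expressed members at the 66.6th to 76.7th. The order among the latter was not firm, since PAX2 and LHX1 were level in siNC library 2 (3.07 and 3.06 RPKM) and LHX1 and CDH16 were level in siNC library 1 (2.06 and 2.07 RPKM). In siPRR11 cells CDH16 (2.86 and 2.91 RPKM) lay above LHX1 (1.63 and 1.98 RPKM) in both libraries. The CDH16 to LHX1 ratio of RPKM was 1.003 and 0.612 in the siNC libraries and 1.76 and 1.47 in the siPRR11 libraries. Of the 6 members with enough counts to be tested, 2 passed the threshold, CDH16 higher and LHX1 lower, and these were also the 2 whose groups did not overlap, a state found for 58.4% of all genes tested. With 6 genes tested, this count is not set apart from the 16.7% of all genes.

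**Figure D1:**
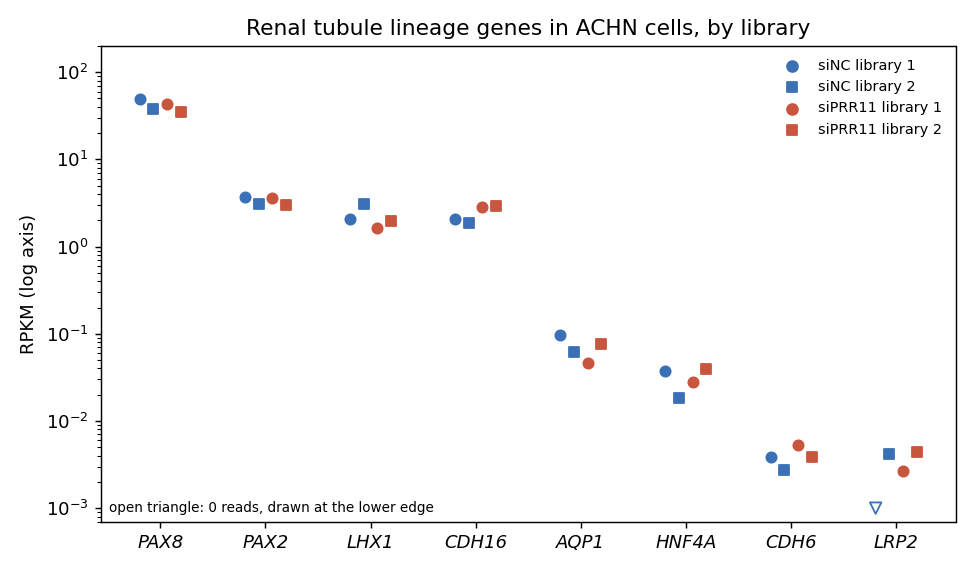
RPKM of the 8 genes in each library on a log axis, with siNC in blue, siPRR11 in red, circles for library 1 and squares for library 2. PAX8, PAX2, LHX1 and CDH16 lie at 1.63 RPKM or above in all 4 libraries, and AQP1, HNF4A, CDH6 and LRP2 lie below 0.1 RPKM.

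The sequence around the start sites is shown for an expressed and a pair of near-silent members. RefSeq windows of 300 bases (GRCh38.p14, 250 bases before to 50 after a start site) were held for 5 of the 8 genes, with 7 windows in all. Each was searched on both strands for GTTAAT, the half-site of the HNF1 factors, and for TATAAA, the TATA box, which do not overlap each other here. PAX8 is shown as the most expressed member, and HNF4A and AQP1 as the near-silent members with a match, with the matches in capitals.
PAX8, chr2:113278872-113279171, minus strand: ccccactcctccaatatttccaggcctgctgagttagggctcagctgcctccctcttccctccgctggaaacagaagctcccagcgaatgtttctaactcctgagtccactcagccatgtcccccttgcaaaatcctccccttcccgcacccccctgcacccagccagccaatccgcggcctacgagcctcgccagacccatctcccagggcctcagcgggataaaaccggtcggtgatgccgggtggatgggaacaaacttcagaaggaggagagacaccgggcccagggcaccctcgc
HNF4A, downstream start site, chr20:44400989-44401288, plus strand: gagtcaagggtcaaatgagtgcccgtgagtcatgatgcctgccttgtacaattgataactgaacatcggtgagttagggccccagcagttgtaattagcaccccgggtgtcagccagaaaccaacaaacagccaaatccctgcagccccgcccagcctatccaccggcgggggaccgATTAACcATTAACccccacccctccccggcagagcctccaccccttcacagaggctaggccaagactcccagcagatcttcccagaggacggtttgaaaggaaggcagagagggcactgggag
AQP1, chr7:30911603-30911902, plus strand: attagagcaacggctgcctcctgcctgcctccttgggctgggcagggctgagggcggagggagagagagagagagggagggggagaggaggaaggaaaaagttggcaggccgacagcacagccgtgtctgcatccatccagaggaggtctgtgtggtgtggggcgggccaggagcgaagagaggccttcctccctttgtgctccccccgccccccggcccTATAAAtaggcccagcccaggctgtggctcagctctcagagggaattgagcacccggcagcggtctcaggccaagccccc
The HNF4A window held 2 closely spaced matches to the HNF1 half-site, both as ATTAAC and so on the other strand, which begin 73 and 66 bases before the start site. At least 1 such match occurred in 6.88% of 35116 promoter windows, and 2 or more in 0.527%. The AQP1 window held TATAAA 30 bases before its start site, and 11.5% of windows held these letters at any position. The windows of PAX8, PAX2 (2 windows), LRP2 and the upstream HNF4A start site held neither. The CpG dinucleotides numbered between 9 and 23 in the 7 windows, against a median of 14 over all windows, with overlapping numbers in expressed and near-silent members (13 in PAX8 and 14 and 19 in PAX2, 10 in AQP1, 9 and 11 in HNF4A, 23 in LRP2).

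PAX8 (GRCh38, chr2:113215997-113278950, minus strand) was the most abundant member by more than 10-fold over PAX2. Its level was 374.8 and 281.3 CPM in the siNC libraries and 310.7 and 252.6 CPM in the siPRR11 libraries, so the groups overlapped. On the log2 scale the difference was -0.22 (standard error 0.126, 95% interval -0.50 to 0.05, edgeR adjusted p = 0.269). The interval covers changes from -29.0% to 3.87%. The libraries of a group differed by more than counting error, which was 0.783% in the shallowest one with each count taken as independent, and library 1 was 1.33 times library 2 in siNC and 1.23 times in siPRR11. The result therefore rested on single libraries. Without siNC library 2 the log2 fold change was -0.42 (adjusted p = 0.000813 from edgeR), without siPRR11 library 1 it was -0.38 (adjusted p = 0.0187), without siNC library 1 it was -0.00065, and without siPRR11 library 2 it was -0.08. PAX8-AS1, a noncoding RNA gene of the opposite strand, covers 9.26% of the exonic bases of PAX8. Its own level was 2.66 and 2.23 RPKM in siNC and 2.62 and 2.14 RPKM in siPRR11 cells (log2 fold change -0.09, adjusted p = 0.646), with the same ordering of libraries within each group.

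PAX2 (chr10:100735603-100829941, plus strand) followed PAX8 across the libraries at a lower level. It was at 23.6 and 19.5 CPM in siNC cells and at 21.98 and 18.2 CPM in siPRR11 cells, with overlapping groups. siPRR11 minus siNC was -0.10 on the log2 scale (standard error 0.12, 95% interval -0.36 to 0.16, adjusted p = 0.619 from edgeR), an interval from -22.2% to 11.7%. Its sign was not fixed, being 0.041 without siNC library 1 and 0.03 without siPRR11 library 2. PAX2 was 1.21 times higher in library 1 than in library 2 in both groups. The PAX8 to PAX2 ratio of RPKM stayed between 11.7 and 13.4 in the 4 libraries. Among the other PAX genes, 5 of 7 were in the table and 2 could be tested. PAX6, an eye and islet factor, was at 0.464 RPKM on average in siNC cells. PAX9, a factor of pharyngeal pouch and tooth development, was at 0.318 and 0.552 CPM in siNC cells and 0.0637 and 0.0935 CPM in siPRR11 cells, lower by a log2 difference of -2.43 (edgeR adjusted p = 0.0108, standard error 0.551). That call rests on few counts and was lost without siNC library 2 (adjusted p = 0.0672) and without siPRR11 library 1 (adjusted p = 0.0518), and with limma on log2(RPKM + 1) and log2(RPKM + 0.1) (0.183 and 0.0999).

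LHX1 (chr17:36936785-36944612, plus strand) fell in siPRR11 cells. It was at 10.2 and 15.2 CPM in the siNC libraries and at 7.82 and 9.52 CPM in the siPRR11 libraries. The siPRR11 libraries lay below the siNC libraries, but the gap between the nearest ones was smaller than the gap within siNC. Its log2 fold change was -0.55 (standard error 0.168, 95% interval -0.92 to -0.18, adjusted p = 0.0444 from edgeR), a change of -31.6% with an interval from -47.0% to -11.8%. This call was close to the threshold and did not hold everywhere. It was lost without siNC library 2 (-0.25, adjusted p = 0.246), without siPRR11 library 1 (-0.41, adjusted p = 0.117), and with limma on log2(RPKM + 1), where the log2 difference was -0.33 (adjusted p = 0.236), or on log2(RPKM + 0.1) (-0.46, adjusted p = 0.216). Without siNC library 1 it was -0.82. In contrast to the PAX genes, LHX1 was lower in library 1 than in library 2 of each group, at 0.673 times in siNC and 0.821 times in siPRR11. A noncoding gene of the opposite strand, RP11-445F12.2, covers 7.52% of the exonic bases of LHX1. It had 84 and 93 counts in siNC and 57 and 84 counts in siPRR11 (log2 fold change -0.72, 95% interval -1.40 to -0.04, adjusted p = 0.145), and since the use of strand in counting is not stated, reads of the pair cannot be told apart.

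HNF4A (chr20:44355700-44434596, plus strand) was near-silent in ACHN cells. The libraries held 23 and 8 of its reads in siNC and 19 and 24 in siPRR11, or between 0.0185 and 0.039 RPKM. Summed over a group this was 0.222 CPM in siNC cells (95% counting interval 0.126 to 0.363) and 0.239 CPM in siPRR11 cells (0.149 to 0.364). The fitted log2 fold change was 0.15 (standard error 0.516, 95% interval -0.98 to 1.28, adjusted p = 0.881 from edgeR), so folds from 0.509 to 2.43 were within the error, and its sign turned without siNC library 2 (-0.23) and without siPRR11 library 2 (-0.09). HNF4G, the paralog of HNF4A, was at 1.12 RPKM on average in siNC cells, against 0.0282 RPKM for HNF4A.

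CDH16 (chr16:66908122-66918984, minus strand) was the member that rose in siPRR11 cells. It was at 7.70 and 6.97 CPM in the siNC libraries and at 10.3 and 10.5 CPM in the siPRR11 libraries. All siPRR11 values lay above all siNC values, and the ratio of library 1 to library 2 was 1.105 in siNC and 0.981 in siPRR11. It rose by 0.50 on the log2 scale (standard error 0.114, 95% interval 0.25 to 0.75, adjusted p = 0.0109 from edgeR), a level 41.4% above the control with an interval from 19.1% to 68%. Leaving out single libraries gave values from 0.43 to 0.57. The adjusted p was 0.0534 without siPRR11 library 2 and 0.0523 with limma on log2(RPKM + 1), while the direction held. No exon of another gene overlaps CDH16 in the table.

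CDH6 (chr5:31193750-31329146, plus strand) had 4 and 2 reads in siNC and 6 and 4 in siPRR11, too few to be tested. The group levels were 0.043 CPM (95% counting interval 0.00886 to 0.126) and 0.0556 CPM (0.0181 to 0.13). The siPRR11 to siNC ratio of 1.29 had a counting interval from 0.252 to 8.34, so no difference was detectable at this depth. CDH2, the cadherin that proximal tubule cells carry beside CDH6, was in the injury list below at 124.4 CPM in siNC and 108.3 CPM in siPRR11 cells (adjusted p = 0.0799 from edgeR).

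LRP2 (chr2:169127109-169362685, minus strand) had 0 and 4 reads in siNC and 4 and 6 in siPRR11 over 16260 exonic bases. The 0 reads of siNC library 1 allow up to 0.0734 CPM, taken as 3 fragments of 2 counts each. Group levels were 0.0286 CPM (95% counting interval 0.00347 to 0.103) and 0.0556 CPM (0.0181 to 0.13). The ratio of 1.94 had a counting interval from 0.318 to 20.4, and LRP2 was not tested further. The genes that work with megalin were expressed nonetheless, apart from its partner receptor CUBN at 0.144 and 0.118 CPM on average in siNC and siPRR11. All 13 genes of the list for megalin endocytosis could be tested, with 1 higher, none lower, and a median log2 fold change of 0.12 against 0.0022 over all genes tested. DAB2, the adaptor that binds the tail of megalin, rose from 44.9 and 35.9 CPM to 56.0 and 49.3 CPM (log2 fold change 0.38, standard error 0.109, adjusted p = 0.0323 from edgeR). Its call was lost without siNC library 2 (0.23, adjusted p = 0.101), without siPRR11 library 1 (0.29, adjusted p = 0.182) and with limma on log2(RPKM + 1) and log2(RPKM + 0.1) (adjusted p = 0.112 and 0.101). GIPC1 and RAB11A, which serve receptor sorting and recycling, had the highest siNC levels of the list, 21.6 and 18.3 RPKM.

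AQP1 (chr7:30911855-30925516, plus strand) had 26 and 12 reads in siNC and 14 and 21 in siPRR11. The groups overlapped, with 0.318 and 0.207 CPM against 0.148 and 0.246 CPM. The difference was -0.44 on the log2 scale (standard error 0.505, 95% interval -1.55 to 0.66, adjusted p = 0.607 from edgeR), and no change was detectable at this depth. Another gene of the same strand, RP5-877J2.1, covers 27.8% of the exonic bases of AQP1 and had more reads, 41 and 50 in siNC and 18 and 39 in siPRR11, so the value of AQP1 is uncertain. No other water channel was abundant. All 13 other aquaporin genes were in the table and 5 could be tested, with none past the threshold, a median of -0.02, and at most 0.853 RPKM on average in siNC cells, for MIP.

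**Figure D2:**
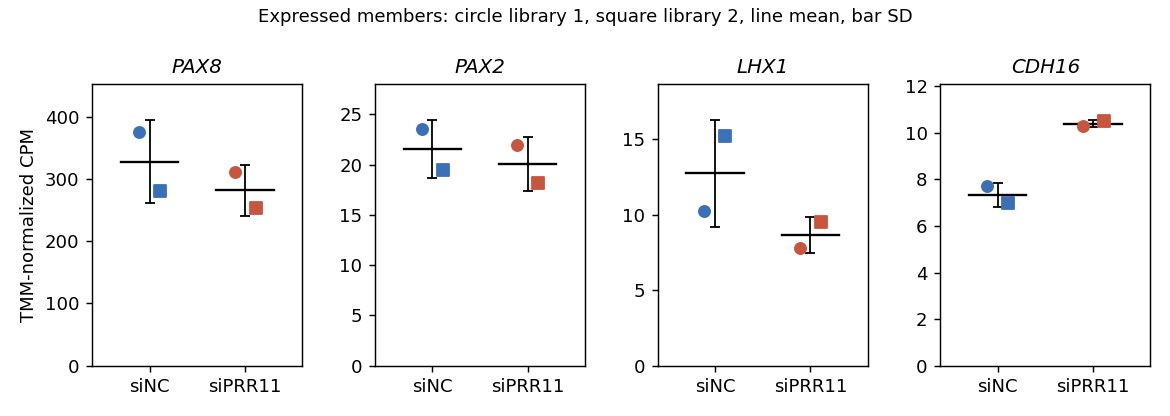
TMM-normalized CPM of PAX8, PAX2, LHX1 and CDH16 by library, with circles for library 1, squares for library 2, lines for group means and bars for the SD (n = 2). Groups overlap for PAX8 and PAX2, while LHX1 is lower and CDH16 higher in both siPRR11 libraries.

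**Figure D3:**
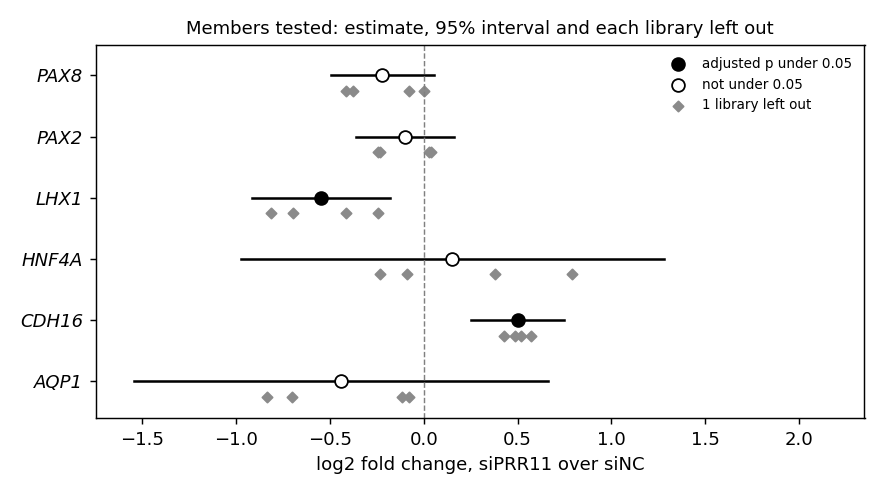
Log2 fold change of siPRR11 over siNC for the 6 members tested, with 95% intervals as lines, filled points for an adjusted p under 0.05, and grey diamonds for fits with 1 library left out. CDH16 stays between 0.43 and 0.57 in these fits, LHX1 ranges from -0.82 to -0.25, and PAX8 from -0.42 to -0.00065.

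For the members past the threshold, the genes with the nearest profile over the 4 libraries were found by the Euclidean distance of centred log2 CPM among 14192 genes whose average log2 CPM was 1 or more. Nearest to CDH16 were KDELC1, an endoplasmic reticulum protein gene (distance 0.0215), and MPPE1 (distance 0.0255). Nearest to LHX1 were MIR3972, a row named for a microRNA gene (distance 0.05) and the histone deacetylase gene HDAC9 (distance 0.0912). With 4 libraries, many genes can share such a profile.

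The wider renal program was followed in lists of transcription factors and segment markers. Over all genes tested, 7.61% were higher and 9.14% lower in siPRR11 cells, and the counts of every list stand beside these shares. The lists are small, and none was tested as a set. Of 22 other nephron transcription factors, 21 were in the table and 15 were tested, with none higher and 3 lower in siPRR11 cells. Their median log2 fold change was -0.17, against 0.0022 over all genes tested. HNF4G fell from 5.09 and 5.88 CPM to 3.70 and 3.02 CPM (-0.70, standard error 0.156, adjusted p = 0.00978). The siPRR11 libraries of HNF4G lay below its siNC libraries. Its call was lost without siPRR11 library 2 (adjusted p = 0.0627) and with limma on log2(RPKM + 1) and log2(RPKM + 0.1) (adjusted p = 0.0806 and 0.0917). POU3F3, a factor of the loop of Henle and distal tubule, was at 11.6 RPKM in siNC cells and was not past the threshold (0.23, adjusted p = 0.0761). EYA1, WT1, IRX1, EMX2 and TFAP2B had at most 4 counts in any library.

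Proximal tubule markers moved in both directions. Of 33 genes, 30 were in the table and 21 were tested, with 4 higher, 3 lower and a median log2 fold change of 0.10. Falls were found for SLC17A1, a phosphate and urate transporter (from 16.7 and 19.8 CPM to 8.83 and 11.3 CPM, log2 fold change -0.86, standard error 0.133, adjusted p = 0.00128), for UGT2B7, a glucuronosyltransferase (-0.55, standard error 0.0862, adjusted p = 0.00148), and for SLC3A1, a subunit of the cystine transporter (-0.36, standard error 0.0917, adjusted p = 0.0202). PDZK1, the scaffold of brush border transporters, rose from 12.7 and 15.9 CPM to 21.6 and 25.5 CPM (0.72, standard error 0.124, adjusted p = 0.00227). ALPL, an alkaline phosphatase, rose by 1.04 (adjusted p = 0.0208) from 0.637 CPM on average, and KHK, the kinase that opens fructose breakdown, rose by 0.42 (adjusted p = 0.0201). The sodium-glucose transporter SLC5A1, named after its values were seen, rose by 2.54 (standard error 0.419, adjusted p = 0.00184) from 8 and 10 counts to 74 and 64 counts. DESeq2 gave no adjusted p for SLC5A1, and the setting with at least 10 counts in every library left it out. The calls of SLC3A1, KHK and ALPL did not hold everywhere. That of SLC3A1 was lost without siPRR11 library 1 (adjusted p = 0.156) or 2 (0.124), that of KHK without siPRR11 library 1 (0.178) or siNC library 2 (0.0538), and that of ALPL without siPRR11 library 2 (0.106) or siNC library 1 (0.0665). With limma on log2(RPKM + 1) and log2(RPKM + 0.1), SLC3A1 (0.128 and 0.116) and KHK (0.063 and 0.0538) also lost their calls, and with the latter ALPL did (0.0554). UGT2B7 and DPP4, a brush border peptidase, had the highest siNC levels, 16.9 and 15.6 RPKM. SLC7A9 had 0 counts in every library, and SLC22A8, SLC22A2, PCK1 and SLC6A19 had at most 8.

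In the loop of Henle list, all 12 genes were in the table and 4 were tested, with none past the threshold and a median of 0.13. UMOD and SLC12A1, which define the thick ascending limb, had at most 8 counts, whereas CLDN16, a claudin of magnesium reabsorption, was at 24.5 RPKM and EGF at 0.43 RPKM in siNC cells. In the distal and connecting tubule list, 6 of 10 genes were tested, with 1 higher, 1 lower and a median of -0.04. FXYD2, the gamma subunit of the sodium pump, fell from 115.3 and 124.1 CPM to 62.6 and 59.8 CPM (log2 fold change -0.97, standard error 0.0774, adjusted p = 1.6e-05 from edgeR), and leaving out single libraries gave -1.02 to -0.92. SLC12A3, the thiazide-sensitive cotransporter, rose by 0.81 from 0.924 CPM on average (adjusted p = 0.0413), a call lost with DESeq2 (adjusted p = 0.0708), without siNC library 2 (0.145), without either siPRR11 library (0.142 and 0.0627), and with limma on log2(RPKM + 1) (0.0942) and log2(RPKM + 0.1) (0.109). WNK4, a kinase that controls SLC12A3, was at 1.59 RPKM. In the collecting duct list, 7 of 16 genes were tested, with 2 higher, 1 lower and a median of 0.32. ATP6V0A4, a proton pump subunit, rose by 1.26 from 0.667 CPM on average (adjusted p = 0.00573), and the vasopressin receptor AVPR2, named after its values were seen, rose by 1.59 from 14 and 16 counts to 69 and 50 counts (adjusted p = 0.0187), a call lost without siNC library 1 (0.0648) or siPRR11 library 1 (0.124). HSD11B2, which shields the mineralocorticoid receptor from cortisol, fell by 1.67 on the log2 scale from 1.45 CPM on average (adjusted p = 0.00252), and CA2, a carbonic anhydrase, was at 1.26 RPKM.

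The list of tubule injury and dedifferentiation had the highest summed level of the lists, 1301 and 1233 RPKM in the siNC libraries. Its genes differed widely in level. KRT8, CD24 and VIM were at 186.1, 177.6 and 135.8 RPKM on average in siNC cells. HAVCR1, KRT18, CDH2 and KRT7 were at 89.0, 73.2, 24.7 and 12.5 RPKM. LCN2, VCAM1, SOX9 and PROM1 were at 2.93, 2.40, 0.31 and 0.0055 RPKM. Of 13 genes, 12 were tested, with 1 higher, 2 lower and a median of -0.12. SPP1 (osteopontin) was at 328.1 RPKM in siNC cells and fell from 754.5 and 794.3 CPM to 482.4 and 527.4 CPM (log2 fold change -0.62, standard error 0.0753, adjusted p = 0.000298 from edgeR). KRT19, a keratin of simple epithelia, was at 234.4 RPKM and fell by 0.70 on the log2 scale (adjusted p = 0.000405), and KRT18 rose by 0.36 (adjusted p = 0.00886). The calls of SPP1, KRT19 and KRT18 held in every alternative with all 4 libraries, and their directions held when each library was left out. The same was true of FXYD2, SLC17A1, UGT2B7, PDZK1, ATP6V0A4 and HSD11B2 in the lists above.

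Markers of other cell types were checked in the same way. Of 9 podocyte genes, 6 were tested, with none higher and 2 lower, PTPRO (-0.91, adjusted p = 0.00854) and PODXL (-0.32, adjusted p = 0.0302), and SYNPO was at 22.4 RPKM. PODXL lost its call without siPRR11 library 1 (0.0857) or 2 (0.303), and both lost it with limma on log2(RPKM + 1) and log2(RPKM + 0.1) (0.150 and 0.137 for PODXL, 0.0696 and 0.0855 for PTPRO). In the endothelial list 2 of 7 genes were tested, none past the threshold, with a median of 1.02 and a summed level of 0.0413 to 0.104 RPKM in the 4 libraries, led by VWF and TEK. PTPRC and CD3E, which define leukocytes, had at most 4 counts, and of 7 leukocyte genes 3 were tested with none past the threshold, a median of 0.0017 and a summed level of 20.9 to 28.6 RPKM, nearly all of it CD68, a lysosomal gene, at 22.7 RPKM, followed by LYZ at 0.709 RPKM. Of 7 fibroblast genes 5 were tested, with 1 higher, a median of 0.36 and a summed level of 80.7 to 90.8 RPKM, which was mostly THY1 at 78.8 RPKM. COL1A1 rose by 0.90 (adjusted p = 0.000329), while DCN and LUM had at most 4 counts. Of 7 hepatocyte genes 5 were tested, with 1 higher, FGB (1.35, adjusted p = 0.00444), a median of 0.17, and a summed level of 3.95 to 6.36 RPKM, led by SERPINA1 and APOA1. Whether other cells contribute to any of these values was not tested.

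**Figure D4:**
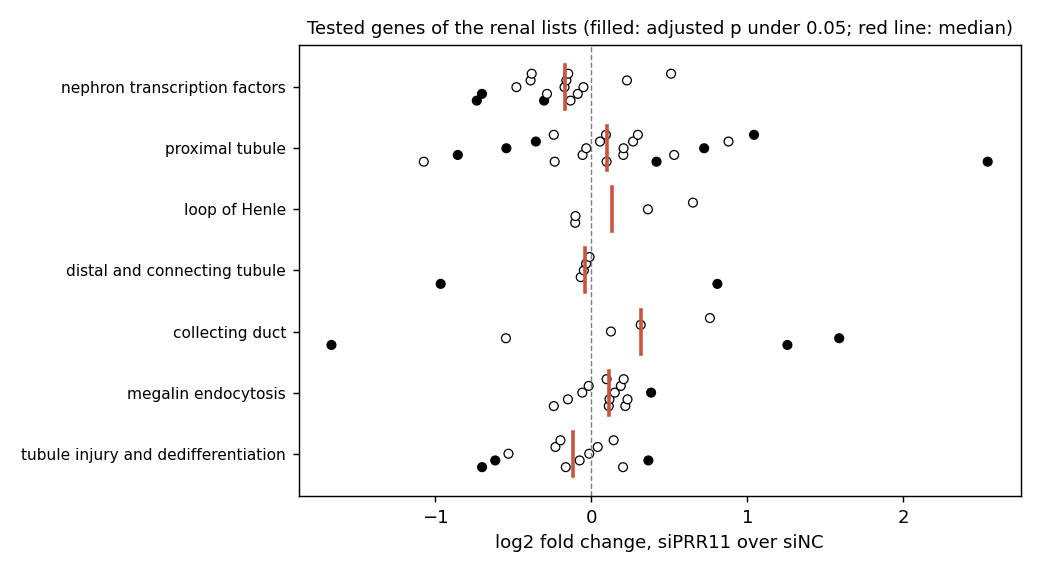
Log2 fold change of siPRR11 over siNC for the tested genes of 7 renal lists, 1 point a gene, filled for an adjusted p under 0.05, with the list median as a red line. The medians lie between -0.17 for nephron transcription factors and 0.32 for the collecting duct, and most lists hold filled points on both sides of 0. CUBN and AMN appear in 2 lists.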

How the data were processed

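RNA of 4 ACHN libraries, 2 siNC and 2 siPRR11, was analysed, grouped by the labels of the samples. Per the labels and the study's methods, the authors trimmed the reads of stranded libraries (Trimmomatic 0.36), aligned them by STAR (GRCh38) and counted with featureCounts (Subread 1.5.1). They deposited raw counts per gene without normalization, and RPKM values of the same genes, which are scaled to exonic length and to the counted reads of the library. The annotation release and the strand setting are not given in the sources used here.

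Counts were normalized by TMM, filtered by filterByExpr and tested with edgeR 4.0.16 (quasi-likelihood, R 4.3.3) with condition as the only term and Benjamini-Hochberg adjustment over 21630 genes. A standard error is the log2 fold change divided by the square root of F. Alternatives were edgeR's exact test, DESeq2 1.42.0, RLE, counts without a filter, at least 10 counts in every library, a replicate block, limma 3.58.1 on log2(RPKM + 1) and log2(RPKM + 0.1), and each library left out, where a lone library is assumed to vary like the other group. Counting intervals at 95% use counts divided by 2, in the gamma form of the Poisson interval (levels) or the exact binomial interval (ratios). For HNF4A, whose totals of 31 in siNC and 43 in siPRR11 are odd, the Poisson interval is approximate. Named genes were the 8 members, PRR11, the 3 largest rises and falls past the threshold whose average log2 CPM was 0 or more, and the 2 highest siNC levels in each list, and the nearest profiles. CDH2, CUBN, PAX8-AS1 and other overlapping genes were added for their relation to a member, as were genes at few counts. The remaining genes of the injury list were named to show the spread of its levels. The members and lists were chosen with earlier results of these data known. Of 170 distinct list genes, 160 were in the table, matched by current or older symbol. Of 23360 symbols found once in both annotations, 99.8% lay at the same place in GENCODE 44. Promoter windows are from RefSeq (GRCh38.p14). Some genes of the lists enter the counts and are not reported here by name.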

Additional observations from a re-analysis of the deposited data

How the results depend on the processing

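Among all genes, 3622 passed the threshold in the edgeR test, 1775 and 1878 with limma on log2(RPKM + 1) and log2(RPKM + 0.1), and 2172 to 4590 when each library was left out, lowest without siPRR11 replicate 1, and 2393 without siPRR11 replicate 2. The share of calls that were higher in siPRR11 cells was 45.4%, against 61.5% and 61.3% in the limma settings, which differ in test, unit and scaling together. Among the members, 2 passed, against 0 and 1 with the limma settings and 1 to 2 when each library was left out. Of the 102 list genes tested, the renal lists and those of other cell types together, 24 passed, against 14 and 13 with limma. Over all 21630 genes tested the share passing in the edgeR test was 16.7%. The list genes were not tested as a set. Across the fits without single libraries, PAX2 ranged from -0.24 to 0.041, above 0 without siNC replicate 1 (0.041) and siPRR11 replicate 2 (0.03), and HNF4A ranged from -0.23 to 0.79, below 0 without siNC replicate 2 (-0.23) and siPRR11 replicate 2 (-0.09). The causes were not tested. RLE, DESeq2 and edgeR's exact test changed the side of the threshold of no member, though DESeq2 gave no adjusted p for HNF4A and AQP1. DESeq2 also gave none for PAX9, SLC5A1 and AVPR2. PAX8 passed without the filter on low counts (-0.22, adjusted p = 0.0265).

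With the replicate number as a block, 6988 of 21630 genes tested passed, against 3622 without it. Among them were 44 of the 102 list genes tested (24 without the block) and 3 of the 6 members tested (2 without it). These members were PAX8 (-0.21, edgeR adjusted p = 0.00362), LHX1 and CDH16. Calls rose over all genes as well, so the added member is not set apart. The labels do not say that equal numbers share a culture or day, and the deviations of equally numbered libraries correlated at 0.165 over genes, so the block is given here only. With 2 libraries per group an SD has few values behind it, and depth limits HNF4A, CDH6, LRP2 and AQP1.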
